A study of Mus musculus with 32 samples.

Results

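The collagen gene family was followed in 2 cell populations sorted from injured mouse shoulder muscle, with and without a brown fat transplant. Members were the genes whose symbol had the form Col, a number, a and a number, with 10 or more counts in at least 4 of the 32 libraries. Of 55487 genes in the tables, 44 met this rule, and the rule used levels alone, with no difference between groups. They were grouped by the structure of their protein as 11 fibrillar, 8 basement membrane, 9 FACIT (fibril-associated collagens with interrupted triple helices), 6 type VI and 10 other chains.

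The mice were 12-week-old C57BL/6J animals of wild-type genotype, labelled male, and in all of them the supraspinatus, a rotator cuff muscle, was injured with the toxin cardiotoxin. The BAT muscles then received interscapular brown adipose tissue from 3-week-old mice, while the CTL muscles had the injury alone, and each animal carried 1 muscle of each kind. Fibro-adipogenic progenitors (FAPs), the resident mesenchymal cells of muscle, were sorted as CD45-/CD31-/Sca1+/a7integrin- cells, and satellite cells (SCs), the muscle stem cells, as CD45-/CD31-/Sca1+/a7integrin+ cells. The groups were FAP BAT day 7, FAP CTL day 7, FAP BAT day 3, FAP CTL day 3, SC BAT day 7, SC CTL day 7, SC BAT day 3 and SC CTL day 3, with 4 libraries each, from separate mice. Each day had its own 4 mice, so day and mouse cannot be told apart, and 1 mouse gave all 4 of its libraries on 1 day.

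Collagens are triple-helical proteins of the extracellular matrix. Fibrillar collagens form the tension-bearing fibrils of muscle connective tissue and tendon, type IV collagen forms the network of basement membranes around each muscle fibre and its satellite cells, and type VI collagen forms beaded filaments between the layers. Fibroblast-like cells such as FAPs are the usual source of fibrillar collagen after muscle injury, and mouse work has placed type V and type VI collagen in the satellite cell niche.

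**Figure D1:**
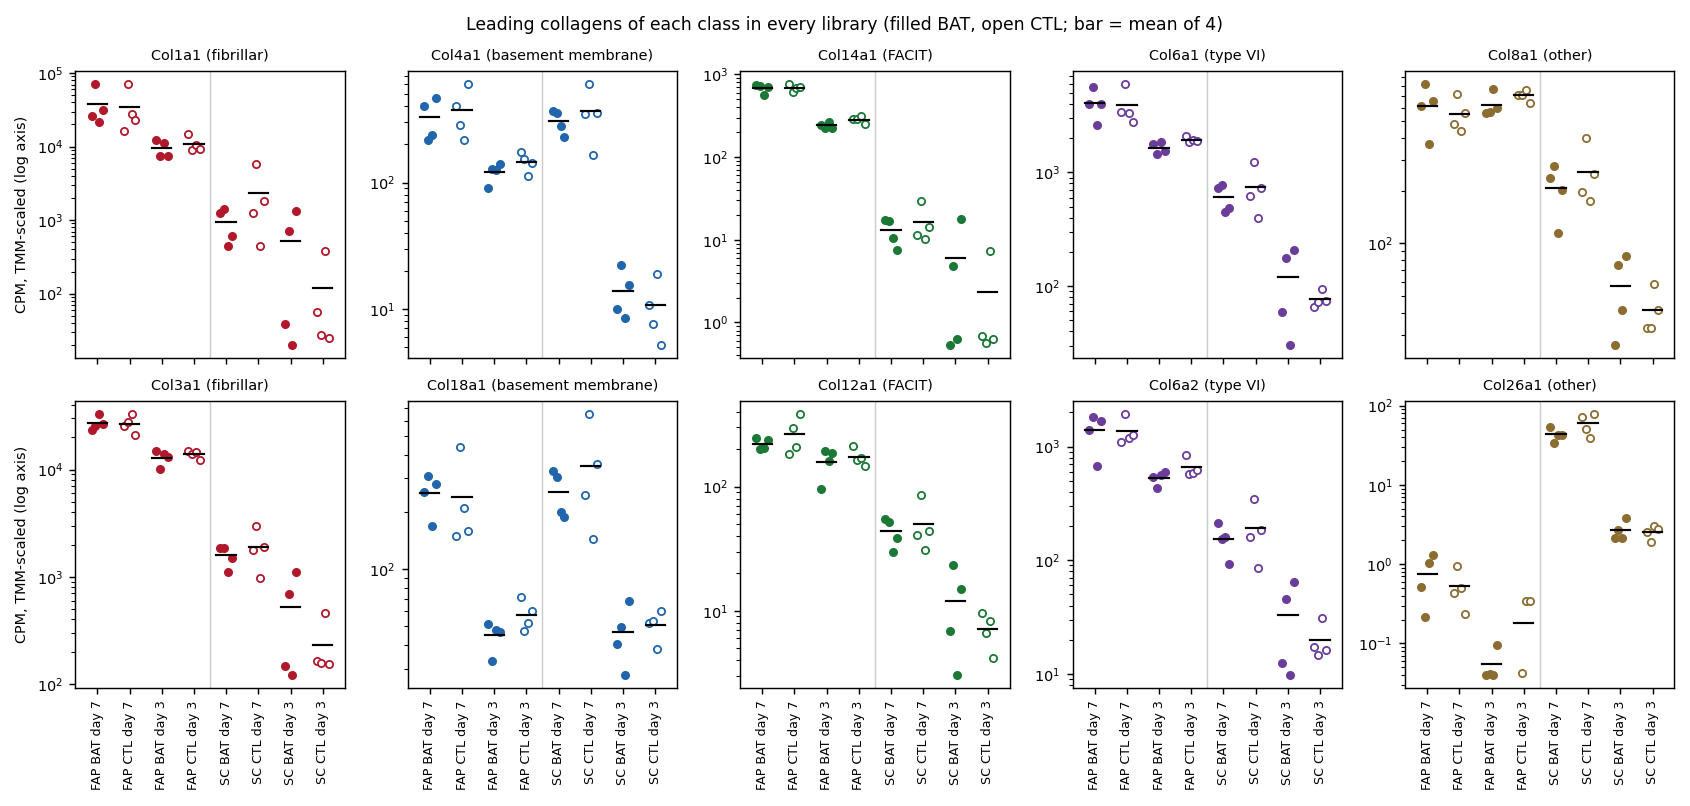
Level of the 10 collagen genes given library by library, as TMM-scaled CPM (counts scaled to 1000000 per library) on a log axis, in the 8 groups (filled points BAT, open points CTL, 4 libraries each; bars, group means). Replicate 1 of FAP CTL day 3 had no Col26a1 count and is not drawn in that panel. At day 3 the FAP libraries lie above the SC libraries in every panel except those of Col18a1, where they overlap, and Col26a1, where the SC libraries lie above.

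Depth was 19.8 to 46.4 M counts per library (M, 1000000), with a median of 25.7 M, and a count of 0 allowed a level of up to 0.0647 to 0.152 CPM (counts scaled to 1000000 per library), counting error only. Pax7, the satellite cell transcription factor, averaged 0 to 0.332 CPM in the FAP groups and 29.0 to 102 CPM in the SC groups. Pdgfra, the receptor that marks FAPs, averaged 323 to 355 CPM in the FAP groups and 1.55 to 6.65 CPM in the SC groups. Ly6a, which encodes the Sca1 antigen named in both sorts, averaged 662 to 877 CPM in the FAP groups but 4.97 to 14.3 CPM in the SC groups. Macrophage marker genes summed to 4480 CPM in FAP BAT day 3 replicate 1, 1588 CPM in SC BAT day 3 replicate 4 and 1446 CPM in SC CTL day 3 replicate 3, against 2.87 to 153 CPM in the other 29 libraries. In the 4 libraries of the day 7 mouse of replicate 3 the X-inactivation transcript Xist had 3582 to 8848 counts and the Y-linked gene Ddx3y had 0, whereas the other 28 libraries had 0 to 5 Xist and 660 to 2483 Ddx3y counts. That mouse therefore went against its label as a male, and the counts of called members that include it are also given without it.

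Promoter sequence is shown for 3 members that stand for the patterns described here: Col3a1 and Col6a1, which are high in FAPs, and Col19a1, which is high in SCs. The bases are those upstream of the RefSeq start that lie in no exon of the GENCODE M21 annotation, from RefSeq on GRCm38.p6, written 5′ to 3′ on the strand of the gene. Col3a1 lies at chr1:45311288-45311537 on the plus strand, Col6a1 at chr10:76726169-76726294 on the minus strand and Col19a1 at chr1:24587473-24587687 on the minus strand. Capitals mark a match to the letters TATAAA of a TATA box, and no function of that stretch was tested.
Col3a1: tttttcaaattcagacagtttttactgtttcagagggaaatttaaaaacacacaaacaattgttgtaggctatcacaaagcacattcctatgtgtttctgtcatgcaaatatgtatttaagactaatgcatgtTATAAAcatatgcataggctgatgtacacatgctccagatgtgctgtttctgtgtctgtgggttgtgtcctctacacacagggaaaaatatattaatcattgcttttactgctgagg
Col6a1: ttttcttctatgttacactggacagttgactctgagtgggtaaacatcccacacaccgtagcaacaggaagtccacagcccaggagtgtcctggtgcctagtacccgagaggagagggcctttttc
Col19a1: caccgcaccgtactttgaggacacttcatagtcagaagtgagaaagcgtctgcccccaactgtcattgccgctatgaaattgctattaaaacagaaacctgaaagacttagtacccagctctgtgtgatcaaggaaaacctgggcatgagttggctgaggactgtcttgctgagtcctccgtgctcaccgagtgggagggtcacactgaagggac

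Windows of 250 bases before to 50 bases after the start were found for 35 of the 44 members. A TATA box (TATAAA, either strand) was in 5 of these windows (14.3%) and in 14.1% of 27025 windows of all genes. A CCAAT box (CCAAT) was in 12 (34.3%) against 37.8% of all windows, and the E-box CAGCTG, the core bound by myogenic factors, in 7 (20%) against 16.2%. A GC box (GGGCGG) was in 22 of the member windows (62.9%), against 35.6% of all windows. For genes with several starts, the start was picked by different rules for the members and for all genes. The shares of member windows and of all windows are therefore not a comparison of like with like, and no conclusion is drawn from their differences. These are matches of letters and describe the windows only.

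The first comparison was of the 2 cell types in control muscle of the same mice. At day 7 collagen transcripts made up 7.83 ± 2.14% of all counts in FAP CTL and 1.05 ± 0.58% in SC CTL libraries, and at day 3 they made up 3.72 ± 0.60% in FAP CTL and 0.0995 ± 0.048% in SC CTL libraries (SD, n = 4 each). In BAT muscle the shares were 8.04 ± 1.68% in FAPs and 0.724 ± 0.20% in SCs at day 7, and 3.29 ± 0.48% in FAPs and 0.204 ± 0.18% in SCs at day 3. By library, the SC shares at day 3 were 0.0611%, 0.282%, 0.0579% and 0.416% in BAT replicates 1 to 4. They were 0.0771%, 0.0691%, 0.172% and 0.0801% in CTL replicates 1 to 4. The highest shares were in the libraries with high summed FAP markers, BAT replicates 2 and 4, at 361 and 433 CPM, and CTL replicate 3, at 296 CPM. The part of these markers was not tested. Without BAT replicate 4 alone, which also had high macrophage markers, the SC BAT share was 0.134%. Without the mouse whose sex transcripts go against its label, the day 7 shares were 7.94% in FAP CTL and 1.25% in SC CTL libraries, and 8.44% in FAP BAT and 0.805% in SC BAT libraries. The lowest FAP library, at 2.61%, was above the highest SC library, at 1.83%. These are sorted bulk populations, in which fewer cells of a type and less RNA per cell cannot be told apart.

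**Figure D2:**
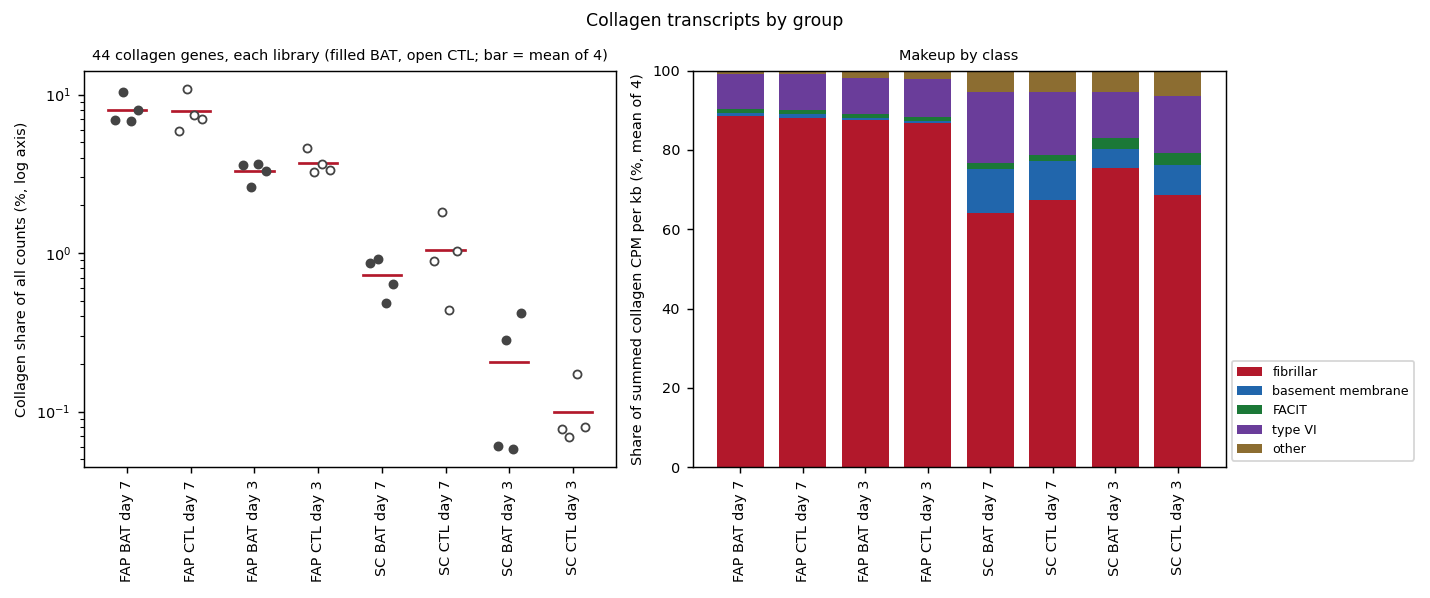
Left, collagen share of all counts in percent on a log axis in each library (filled points BAT, open points CTL; bars, means of 4 libraries); right, percent of the summed collagen CPM per kilobase in each structural class (stacked bars, means of 4 libraries). FAP libraries held 2.61% to 10.9% and SC libraries 0.0579% to 1.83%, and the SC CTL day 3 point that stands apart is replicate 3, at 0.172%.

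The class makeup also differed in level between the cell types. Per kilobase of transcript, fibrillar chains were 88.1% of the collagen signal in FAP CTL and 67.3% in SC CTL libraries at day 7, and 86.7% in FAP CTL and 68.5% in SC CTL libraries at day 3. Basement membrane chains were 1.05% in FAP CTL and 9.85% in SC CTL libraries at day 7, and 0.662% in FAP CTL and 7.59% in SC CTL libraries at day 3. Type VI chains were 9.03% in FAP CTL and 15.8% in SC CTL libraries at day 7, and 9.66% in FAP CTL and 14.6% in SC CTL libraries at day 3. FACIT chains came to 1.01% in FAP CTL and 1.60% in SC CTL libraries at day 7. Between 34 and 39 members had 10 or more counts in the FAP CTL day 7 libraries, and between 34 and 44 in the SC CTL day 7 libraries. At day 3 the numbers were 32 to 33 in FAP CTL and 25 to 34 in SC CTL libraries. The group with the highest mean was a FAP group of day 7 for 31 of the 44 members and an SC group of day 7 for 10.

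At day 3, 28 of the 34 members that could be tested were higher and 4 were lower in FAPs than in SCs, by edgeR's quasi-likelihood test at a Benjamini-Hochberg adjusted p under 0.05 with the mouse as a block. In the same comparison 35.9% of all 16329 genes tested were higher and 35.8% were lower. The median log2 difference, FAP minus SC, was 4.01 over the members tested and -0.03 over all genes tested. All 9 fibrillar and all 5 type VI chains tested were higher, as were 6 of 8 basement membrane, 3 of 4 FACIT and 5 of 8 other chains. The 10 members not tested, for low counts in these 8 libraries, were Col2a1, Col6a5, Col9a1, Col9a2, Col9a3, Col10a1, Col11a2, Col20a1, Col22a1 and Col25a1. A low member passes the filter only through the group in which it is high. These counts, and those of the later comparisons, therefore describe the tested members alone.

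At day 7, 20 of 41 members tested were higher and 4 were lower in FAPs, against 22.6% higher and 22.5% lower of all 16969 genes tested. The median log2 difference was 1.27 over the members and -0.05 over all genes. Higher were 9 of 11 fibrillar, 4 of 6 type VI, 3 of 7 FACIT and 3 of 9 other chains, but 1 of 8 basement membrane chains. That chain was Col15a1, a basement membrane-associated proteoglycan core, with a log2 difference of 0.79 ± 0.15 (SE, adjusted p = 0.0052 by edgeR's quasi-likelihood test). With library totals in place of TMM factors the split was 18 higher and 7 lower, and the median of all genes was -0.47 in place of -0.05. Without the mouse whose sex transcripts go against its label, 23 members were higher and 6 lower.

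**Figure D3:**
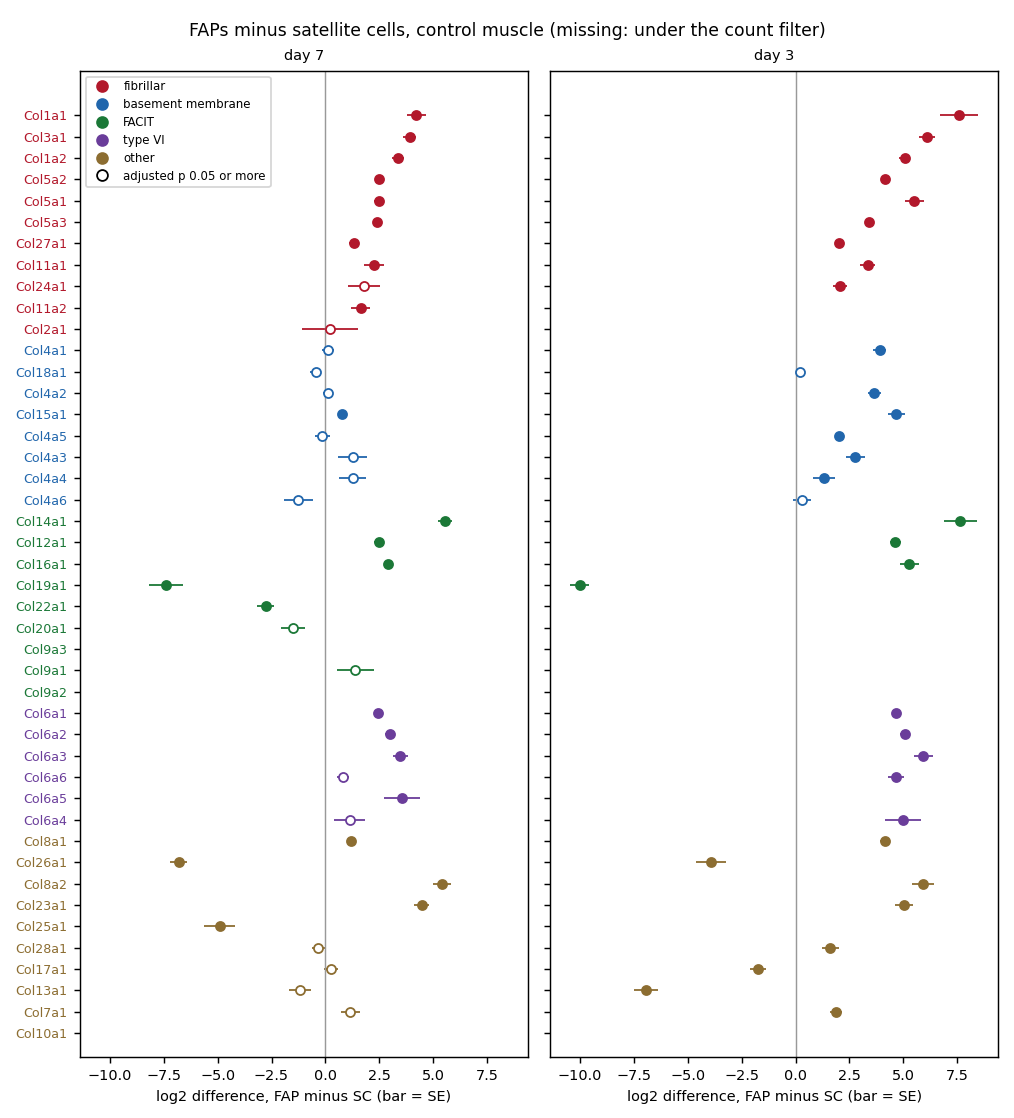
Log2 difference, FAP minus SC, in control muscle for each member tested, at day 7 and at day 3 (points; bars, SE from edgeR's quasi-likelihood fit; filled, adjusted p under 0.05), grouped by structural class. At day 3 all 9 fibrillar and all 5 type VI points lie to the right of 0, and Col19a1 lies farthest to the left, at -10.01.

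Type I collagen, the main fibril-forming collagen of tendon and scar, is made of Col1a1 and Col1a2 chains. Col1a1 (chr11:94936224-94953042) had 16564, 71375, 27966 and 23186 CPM in FAP CTL day 7 replicates 1 to 4, against 1252, 5841, 444 and 1835 CPM in SC CTL day 7 replicates 1 to 4. At day 3 it had 14935, 9109, 10659 and 9148 CPM in FAP CTL libraries, against 56.0, 27.5, 376 and 24.7 CPM in SC CTL libraries. The groups did not overlap on either day, and replicate 2 was the highest library of both day 7 groups. The log2 difference was 4.23 ± 0.43 at day 7 (adjusted p = 0.00032) and 7.57 ± 0.89 at day 3 (adjusted p = 0.00023, both by edgeR's quasi-likelihood test). Col1a2 differed by 3.35 ± 0.28 at day 7 and by 5.05 ± 0.25 at day 3.

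Col3a1, the type III chain found in fine reticular fibrils, had 25547, 28019, 32670 and 20934 CPM in FAP CTL day 7 libraries, against 1784, 3005, 970 and 1899 CPM in SC CTL day 7 libraries. Its day 3 values were 14789, 13967, 14528 and 12315 CPM in FAP CTL libraries, against 164, 156, 460 and 155 CPM in SC CTL libraries. The FAP libraries lay close together on both days, and 1 SC library of day 3, replicate 3, was apart from the other 3. The log2 difference was 3.91 ± 0.31 at day 7 and 6.09 ± 0.37 at day 3 (edgeR's quasi-likelihood test, adjusted p = 0.00013 and 1.1e-05). The type V chains, which sit inside fibrils and set their width, were higher in FAPs as well: Col5a1 by 2.49 ± 0.22, Col5a2 by 2.47 ± 0.16 and Col5a3 by 2.39 ± 0.19 at day 7. The chains without a called difference at day 7 were Col24a1, at 1.79 ± 0.73, and the cartilage chain Col2a1, at 0.21 ± 1.32.

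The SC library of day 3 with the high Col1a1 and Col3a1 values was also the one with the macrophage signal, and its summed FAP markers were 296 CPM, against 38.1 to 71.5 CPM in the other 3 SC CTL day 3 libraries. All 12 FAP markers had counts in the group, and Pdgfra reached 13.5 CPM in it. The part of these markers in the SC collagen values was not tested. Tenocyte markers were higher in FAPs, with 7 of 8 called at day 7 and 7 of 8 at day 3, where 1 was lower. Their sum was 1101 to 8296 CPM in FAP CTL and 56.7 to 574 CPM in SC CTL libraries at day 7, and 1041 to 1833 CPM in FAP CTL and 21.3 to 97.7 CPM in SC CTL libraries at day 3. Replicate 2, the highest for Col1a1, had the highest sum of both day 7 groups, and the part of these markers was not tested either. In the same mice, the median SC level of Pdgfra was 0.474% of the FAP level at day 7 and 0.262% at day 3, and that of Ly6a 0.553% and 0.631%. For Col1a1 the SC level was 7.74% of the FAP level at day 7 and 0.437% at day 3, and for Col3a1 8.03% and 1.12%. For Col14a1 it was 1.77% and 0.229%, for Col6a1 19.4% and 3.67%, for Col4a1 81.0% and 6.88%, and for Col18a1 157% and 93.2%.

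Among basement membrane chains, Col4a1, which with Col4a2 forms the common type IV network, had 402, 286, 218 and 604 CPM in FAP CTL day 7 libraries, against 347, 606, 164 and 357 CPM in SC CTL day 7 libraries. These ranges overlapped almost wholly. In the day 3 libraries it had 174, 153, 113 and 143 CPM in FAP CTL libraries, against 10.8, 7.56, 19.0 and 5.21 CPM in SC CTL libraries, with no overlap. The log2 difference was 0.10 ± 0.28 at day 7 (adjusted p = 0.79) and 3.89 ± 0.31 at day 3 (adjusted p = 3.8e-05, both by edgeR's quasi-likelihood test). The small day 7 value changed sign when library totals were used, at -0.31, and without the mouse of day 7 replicate 4, at -0.095. Col4a2 gave 0.10 ± 0.21 at day 7 and 3.66 ± 0.30 at day 3.

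Col18a1, the precursor of endostatin, had 150, 441, 209 and 159 CPM in FAP CTL day 7 libraries, against 246, 655, 143 and 355 CPM in SC CTL day 7 libraries. Its values at day 3 were 71.6, 47.1, 52.3 and 60.0 CPM in FAP CTL libraries, against 52.3, 53.4, 38.1 and 60.4 CPM in SC CTL libraries. The 2 cell types overlapped on both days. The log2 difference was -0.46 ± 0.25 at day 7 and 0.18 ± 0.13 at day 3, neither past the threshold. Without the mouse whose sex transcripts go against its label, the day 7 difference was -0.78 and was called (adjusted p = 0.0136 by edgeR's quasi-likelihood test), and with library totals it was -0.88 and was called (adjusted p = 0.020), whereas in BAT muscle it was 0.036 and was not.

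The FACIT chains Col14a1 and Col12a1 bind to the surface of fibrils in tendon and fascia. Col14a1 had 770, 613, 681 and 694 CPM in FAP CTL day 7 libraries, against 11.3, 29.7, 10.2 and 14.2 CPM in SC CTL day 7 libraries. At day 3 it had 292, 286, 309 and 248 CPM in FAP CTL libraries, against 0.685, 0.559, 7.36 and 0.636 CPM in SC CTL libraries. It was the most strongly FAP-sided chain on both days, with log2 differences of 5.56 ± 0.33 at day 7 and 7.64 ± 0.77 at day 3 (edgeR's quasi-likelihood test, adjusted p = 4.9e-05 and 0.00011). Col12a1 had 181, 295, 208 and 385 CPM in FAP CTL day 7 libraries, against 40.5, 84.8, 30.7 and 43.7 CPM in SC CTL day 7 libraries. The day 3 libraries held 213, 163, 170 and 146 CPM in FAP CTL libraries, against 9.52, 6.64, 8.20 and 4.15 CPM in SC CTL libraries. The groups did not overlap, and the log2 difference was 2.49 ± 0.23 at day 7 and 4.63 ± 0.26 at day 3.

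Type VI collagen is assembled from Col6a1, Col6a2 and a longer chain, and loss of any of them causes muscle disease in humans. Col6a1 had 3414, 6022, 3303 and 2776 CPM in FAP CTL day 7 libraries, against 620, 1245, 398 and 734 CPM in SC CTL day 7 libraries. At day 3 it had 2090, 1836, 1907 and 1881 CPM in FAP CTL libraries, against 65.2, 71.8, 93.9 and 74.7 CPM in SC CTL libraries. Its 4 libraries agreed closely in each cell type at day 3, and the log2 difference was 4.67 ± 0.12, against 2.45 ± 0.19 at day 7.

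Col6a2 had 1098, 1944, 1195 and 1270 CPM in FAP CTL day 7 libraries, against 160, 345, 85.5 and 185 CPM in SC CTL day 7 libraries. Its day 3 libraries held 842, 578, 585 and 617 CPM in FAP CTL libraries, against 17.2, 14.8, 31.1 and 16.1 CPM in SC CTL libraries. It followed Col6a1, with log2 differences of 2.98 ± 0.22 at day 7 and 5.10 ± 0.23 at day 3. Col6a3 differed by 3.47 ± 0.35 at day 7 and by 5.92 ± 0.43 at day 3. Col6a6 was called at day 3, at 4.64 ± 0.38, but not at day 7, at 0.82 ± 0.29. The summed counts of Col6a4 at day 3 were 91 in FAP CTL and 3 in SC CTL libraries, a CPM ratio of 35.4 with an exact 95% counting interval of 11.7 to 175.

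Col8a1, a short network-forming chain of vessel walls, had 484, 716, 442 and 557 CPM in FAP CTL day 7 libraries, against 196, 402, 175 and 249 CPM in SC CTL day 7 libraries. The values of day 3 were 708, 708, 762 and 639 CPM in FAP CTL libraries, against 32.5, 32.6, 58.6 and 41.7 CPM in SC CTL libraries. It was higher in FAPs by 1.18 ± 0.13 at day 7 and by 4.13 ± 0.21 at day 3. Its partner Col8a2 differed by 5.40 ± 0.42 at day 7, and the transmembrane collagen Col23a1 by 4.47 ± 0.35, the values next to Col14a1 at that time.

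A small set of members ran the other way. Col19a1, a FACIT chain whose gene lies beside Col9a1 at chr1:24261890-24587472, had 53.2, 32.6, 44.7 and 51.4 CPM in SC CTL day 7 libraries and 18.7, 13.1, 14.7 and 15.5 CPM in SC CTL day 3 libraries. In FAPs it had counts in 5 of 16 libraries, namely 26 and 4 in FAP CTL day 7 replicates 3 and 4, 13 in FAP BAT day 7 replicate 3, 23 in FAP BAT day 3 replicate 1 and 1 in FAP CTL day 3 replicate 3. The 3 FAP libraries with 13 or more were also those in which Pax7 was above 0, at 0.359, 0.604 and 1.33 CPM. The part of satellite cell RNA in the FAP values was not tested. The log2 difference was -7.38 ± 0.79 at day 7 and -10.01 ± 0.43 at day 3 (edgeR's quasi-likelihood test, adjusted p = 0.00037 and 3.7e-06). At day 3 the FAP libraries held 1 count in all and the SC libraries 1826, so the ratio of SC to FAP was 1567 with an exact 95% counting interval of 281 to 61912, and the fitted value depends on the prior count.

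Col26a1 had 0.438, 0.939, 0.503 and 0.238 CPM in FAP CTL day 7 libraries, against 72.3, 51.2, 39.3 and 78.9 CPM in SC CTL day 7 libraries. At day 3 it had 0, 0.0420, 0.341 and 0.345 CPM in FAP CTL libraries, against 2.51, 1.88, 2.99 and 2.75 CPM in SC CTL libraries. The groups were far apart on both days, with log2 differences of -6.81 ± 0.41 at day 7 and -3.93 ± 0.72 at day 3. Col13a1, a transmembrane collagen of the neuromuscular junction, summed to 2 counts in FAP CTL and 366 in SC CTL libraries at day 3, a ratio of SC to FAP of 157 with an interval of 43.2 to 1301. The hemidesmosome collagen Col17a1 was lower in FAPs at day 3, by -1.75 ± 0.37, but was not called in BAT muscle, at -0.62.

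At day 7 the lower members were Col19a1, Col26a1, Col25a1 and Col22a1. Col25a1, a transmembrane collagen needed in mice for motor axons to enter muscle, differed by -4.91 ± 0.73. Col22a1, a FACIT chain of the muscle-tendon junction, differed by -2.78 ± 0.39 (edgeR's quasi-likelihood test, adjusted p = 0.0016 for Col25a1 and 0.0012 for Col22a1). At day 7 the SC libraries also carried summed pericyte and smooth muscle markers of 1526 to 3176 CPM in control muscle, against 121 to 304 CPM in FAP CTL day 7 libraries. All 7 of those markers had counts in both groups. Summed Schwann and glial markers were 10.3 to 14.2 CPM in FAP CTL and 105 to 696 CPM in SC CTL day 7 libraries. The part of either list in the collagen values of SCs was not tested.

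The remaining members were of low or middling level. Col16a1, a FACIT chain, was higher in FAPs by 2.91 ± 0.16 at day 7 and by 5.29 ± 0.44 at day 3, and the fibrillar chains Col27a1, at 1.32 ± 0.25 and 2.01 ± 0.11, and Col11a1, at 2.25 ± 0.46 and 3.34 ± 0.35, were higher on both days as well. Col11a2 was higher at day 7, by 1.63 ± 0.45. The minor type IV chains were called in FAPs at day 3 for Col4a3, at 2.77 ± 0.45, Col4a4, at 1.32 ± 0.50, and Col4a5, at 2.02 ± 0.20, but none was called at day 7, where Col4a3 gave 1.26 ± 0.66, Col4a4 1.27 ± 0.61, Col4a5 -0.14 ± 0.36 and Col4a6 -1.26 ± 0.68. Col28a1, a collagen of peripheral nerve, and Col7a1 were called at day 3, at 1.60 ± 0.40 and 1.87 ± 0.29, and not at day 7, at -0.33 ± 0.29 and 1.16 ± 0.42. The lowest members by their highest library were Col9a3, at 0.879 CPM, Col9a2, at 0.939 CPM, Col10a1, at 1.21 CPM, Col20a1, at 1.49 CPM, Col4a6, at 1.57 CPM, and Col9a1, at 2.32 CPM, and Col9a2 was tested in no comparison.

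The second comparison was day 7 with day 3 in control muscle. In SCs, 33 of 36 members tested were higher at day 7 and 1 was lower (edgeR's quasi-likelihood test, no block because the mice differ), against 29.7% higher and 29.8% lower of all 16597 genes tested. The median log2 difference, day 7 minus day 3, was 2.66 over the members and 0.03 over all genes. By class, all 9 fibrillar, 7 of 8 basement membrane, all 6 FACIT, all 4 type VI and 7 of 9 other chains tested were higher. In FAPs, 22 of 34 members tested were higher and 0 were lower, against 11.5% higher and 11.4% lower of all 16144 genes, with medians of 1.21 for the members and 0.09 for all genes. At an unadjusted p under 0.05 there were 28 FAP members, against 38% of all genes, and DESeq2 called 26 higher and 0 lower. Without the mouse whose sex transcripts go against its label, 36 of 38 members tested were higher and 1 lower in SCs, and 26 of 35 were higher and 0 lower in FAPs, where Col12a1 was then called at 0.76 (adjusted p = 0.040). With all mice, higher in FAPs were 7 of 10 fibrillar, 5 of 8 basement membrane, 2 of 4 FACIT, 5 of 6 type VI and 3 of 6 other chains. The limit given for the filter holds in both cell types. A low member such as Col6a6, with 11 counts in SC CTL day 3 libraries, was tested only because it was high at day 7.

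**Figure D4:**
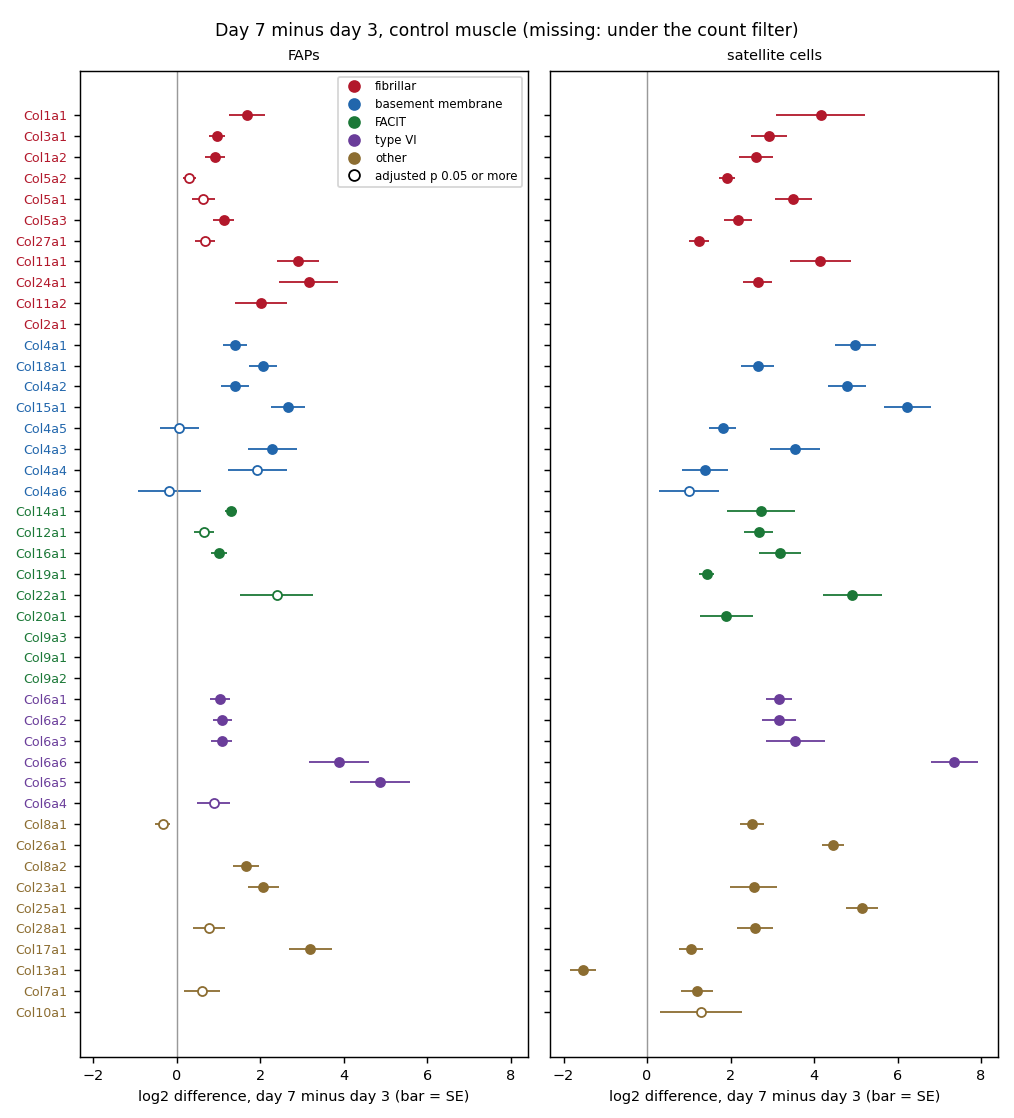
Log2 difference, day 7 minus day 3, in control muscle for each member tested, in FAPs and in SCs (points; bars, SE from edgeR's quasi-likelihood fit; filled, adjusted p under 0.05), grouped by structural class. The SC points lie mostly to the right of the FAP points, and Col13a1 in SCs, at -1.53, is the called member to the left of 0.

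In SCs the largest differences were those of Col6a6, at 7.36 ± 0.57, Col15a1, at 6.24 ± 0.56, and Col25a1, at 5.14 ± 0.38. Col6a6 averaged 17.5 ± 8.79 CPM in SC CTL day 7 and 0.101 ± 0.0696 CPM in SC CTL day 3 libraries (SD, n = 4 each). Col15a1 averaged 81.3 ± 35.2 CPM in SC CTL day 7 and 0.998 ± 0.847 CPM in SC CTL day 3 libraries, or 0.577 CPM without replicate 3 of day 3. Col25a1 averaged 5.08 ± 0.856 CPM in SC CTL day 7 and 0.134 ± 0.0819 CPM in SC CTL day 3 libraries, and its SC groups did not overlap. Col4a1 was higher by 4.99 ± 0.49 and Col4a2 by 4.79 ± 0.46, and the library values above show every SC CTL day 7 value of Col4a1 over every SC CTL day 3 value. Col26a1 was higher by 4.46 ± 0.26.

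The SC difference of Col1a1 had a larger error than those above. It was higher by 4.16 ± 1.06 (adjusted p = 0.0067 by edgeR's quasi-likelihood test), and its lowest day 7 library, at 444 CPM, was close to its highest day 3 library, at 376 CPM. In BAT muscle the SC difference of Col1a1 was 0.82 and that of Col14a1 was 1.11, and neither was called. SC BAT day 3 replicates 2 and 4 had Col1a1 at 717 and 1313 CPM and summed FAP markers at 361 and 433 CPM, against 38.8 and 20.3 CPM of Col1a1 and 76.0 and 60.3 CPM of FAP markers in replicates 1 and 3. Col13a1 was the SC member that fell, with 1.15 ± 0.391 CPM in SC CTL day 7 and 3.08 ± 0.55 CPM in SC CTL day 3 libraries, a log2 difference of -1.53 ± 0.30. In BAT muscle that difference was -0.97 and was not called.

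Pericyte and smooth muscle markers moved with the SC day difference. Their sum was 1526 to 3176 CPM in SC CTL day 7 and 190 to 314 CPM in SC CTL day 3 libraries, with all 7 markers detected in both groups, and Rgs5, a pericyte marker, had 191 to 962 CPM at day 7 and 2.46 to 15.1 CPM at day 3. Schwann and glial markers summed to 105 to 696 CPM in SC CTL day 7 and 21.4 to 69.0 CPM in SC CTL day 3 libraries. Tenocyte markers summed to 56.7 to 574 CPM in SC CTL day 7 and 21.3 to 97.7 CPM in SC CTL day 3 libraries. The part of these lists in the SC result was not tested. Macrophage markers ran the other way, with 9 of 10 tested lower at day 7 and a median log2 difference of -4.56. Their sum was 2.87 to 53.4 CPM in SC CTL day 7 libraries, against 1446 CPM in replicate 3 and 5.72 to 40.0 CPM in the other 3 SC CTL day 3 libraries. Without SC CTL day 3 replicate 3, 34 of 39 collagen members tested were higher and 1 was lower.

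In FAPs the largest differences were those of Col6a5, at 4.87 ± 0.71, Col6a6, at 3.89 ± 0.72, and Col17a1, at 3.20 ± 0.52. Col6a5 had 17.4, 2.29, 4.43 and 11.8 CPM in FAP CTL day 7 libraries, against 0.190, 0.420, 0.0975 and 0.499 CPM in FAP CTL day 3 libraries. The groups did not overlap. Col6a6 averaged 39.3 ± 32.8 CPM in FAP CTL day 7 and 2.67 ± 1.58 CPM in FAP CTL day 3 libraries. Col14a1 was higher by 1.30 ± 0.15, Col3a1 by 0.96 ± 0.20, Col6a1 by 1.03 ± 0.24 and Col18a1 by 2.07 ± 0.33. Col1a1 was higher by 1.68 ± 0.43 (edgeR's quasi-likelihood test, adjusted p = 0.018), but the call was lost without FAP CTL day 3 replicate 2, 3 or 4, at adjusted p = 0.0617, 0.0553 and 0.0578. Col8a1 gave -0.34 ± 0.18 and was not called, except without FAP CTL day 7 replicate 2, at -0.49. Tenocyte markers summed to 1101 to 8296 CPM in FAP CTL day 7 and 1041 to 1833 CPM in FAP CTL day 3 libraries, lowest at day 7 in the mouse of replicate 3. All 5 erythroid markers were higher at day 7, with sums of 32.9 to 95.8 CPM in FAP CTL day 7 and 4.45 to 12.7 CPM in FAP CTL day 3 libraries. Of 6 pericyte and smooth muscle markers tested 3 were higher and 0 lower, although their sum was 121 to 304 CPM in FAP CTL day 7 and 259 to 418 CPM in FAP CTL day 3 libraries. The part of these lists in the FAP result was not tested.

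The test of the difference between these day changes asked whether the members changed by unequal amounts in the 2 cell types. Of 43 members tested, 20 were lower and 2 were higher in FAPs minus SCs, against 15.4% lower and 8.39% higher of all 18069 genes, with medians of -1.72 for the members and -0.12 for all genes. A negative value here means a smaller day 7 minus day 3 difference in FAPs than in SCs. Low members again entered the test only through a group in which they were high. The lowest values were those of Col25a1, at -4.20 ± 1.30, Col15a1, at -3.87 ± 0.44, and Col6a6, at -3.84 ± 0.54. Col4a1 gave -3.81 ± 0.49 and Col8a1 -2.97 ± 0.24 (edgeR's quasi-likelihood test, adjusted p = 0.00081 and 0.00011). Higher was Col17a1, at 1.99 ± 0.51. Col13a1 was called higher too, but it summed to 53 counts in FAP CTL day 7 and 2 counts in FAP CTL day 3 libraries, against 152 counts in SC CTL day 7 and 366 counts in SC CTL day 3 libraries, so its fitted value depends on the prior count and gives no size. The Col25a1 value likewise rests on 23 counts in FAP CTL day 7, 8 counts in FAP CTL day 3 and 15 counts in SC CTL day 3 libraries. That of Col6a6 rests on 11 counts in SC CTL day 3 libraries. By class 6 of 11 fibrillar, 4 of 8 basement membrane, 2 of 8 FACIT, 4 of 6 type VI and 4 of 10 other chains were lower.

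This count was smaller in BAT muscle, with 9 lower and 0 higher of 42 tested. Among the members named here, Col1a1, Col3a1, Col6a1, Col6a2, Col6a6, Col12a1, Col13a1, Col17a1, Col25a1 and Col26a1 were not called there. The Col1a1 value of -3.37 ± 1.00 (adjusted p = 0.035 by edgeR's quasi-likelihood test) also lost its call with DESeq2, at adjusted p = 0.277, without the mouse block, at 0.138, and when any 1 of 6 of the 8 mice was left out. That of Col25a1 was lost without any 1 of 6 mice, and that of Col17a1 without the day 3 mouse of SC replicate 1. Col26a1, at -2.99 ± 0.97, lost its call with RLE scaling, with DESeq2 and without any 1 of 6 mice. Without the mouse whose sex transcripts go against its label, 20 members were lower and 2 higher, and Col18a1 was then called, at -0.96 (adjusted p = 0.017).

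The third comparison was the transplant, BAT minus CTL within each mouse. No member was called in FAPs at day 7 (39 tested), in FAPs at day 3 (33), in SCs at day 7 (43) or in SCs at day 3 (27) by edgeR's quasi-likelihood test. Over all genes, 0, 0.0188%, 0.0178% and 0 were called in the same 4 comparisons. At an unadjusted p under 0.05 there were 2 of 39, 6 of 33, 7 of 43 and 1 of 27 members tested. Of all genes, 4.89%, 4.58%, 7.48% and 3.02% were under it. Fitted differences were below 0 for 19 of 39, 27 of 33, 34 of 43 and 6 of 27 members. The members share libraries, so these counts are descriptions and no test. Without the mouse whose sex transcripts go against its label, edgeR called 0 members in either cell type at day 7. DESeq2 called 0 members in the FAP comparisons and in SCs at day 3, and 1 in SCs at day 7. The median log2 difference of the members was 0.01 in FAPs at day 7, -0.20 in FAPs at day 3, -0.22 in SCs at day 7 and 0.28 in SCs at day 3, with medians over all genes of -0.01 to 0.

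**Figure D5:**
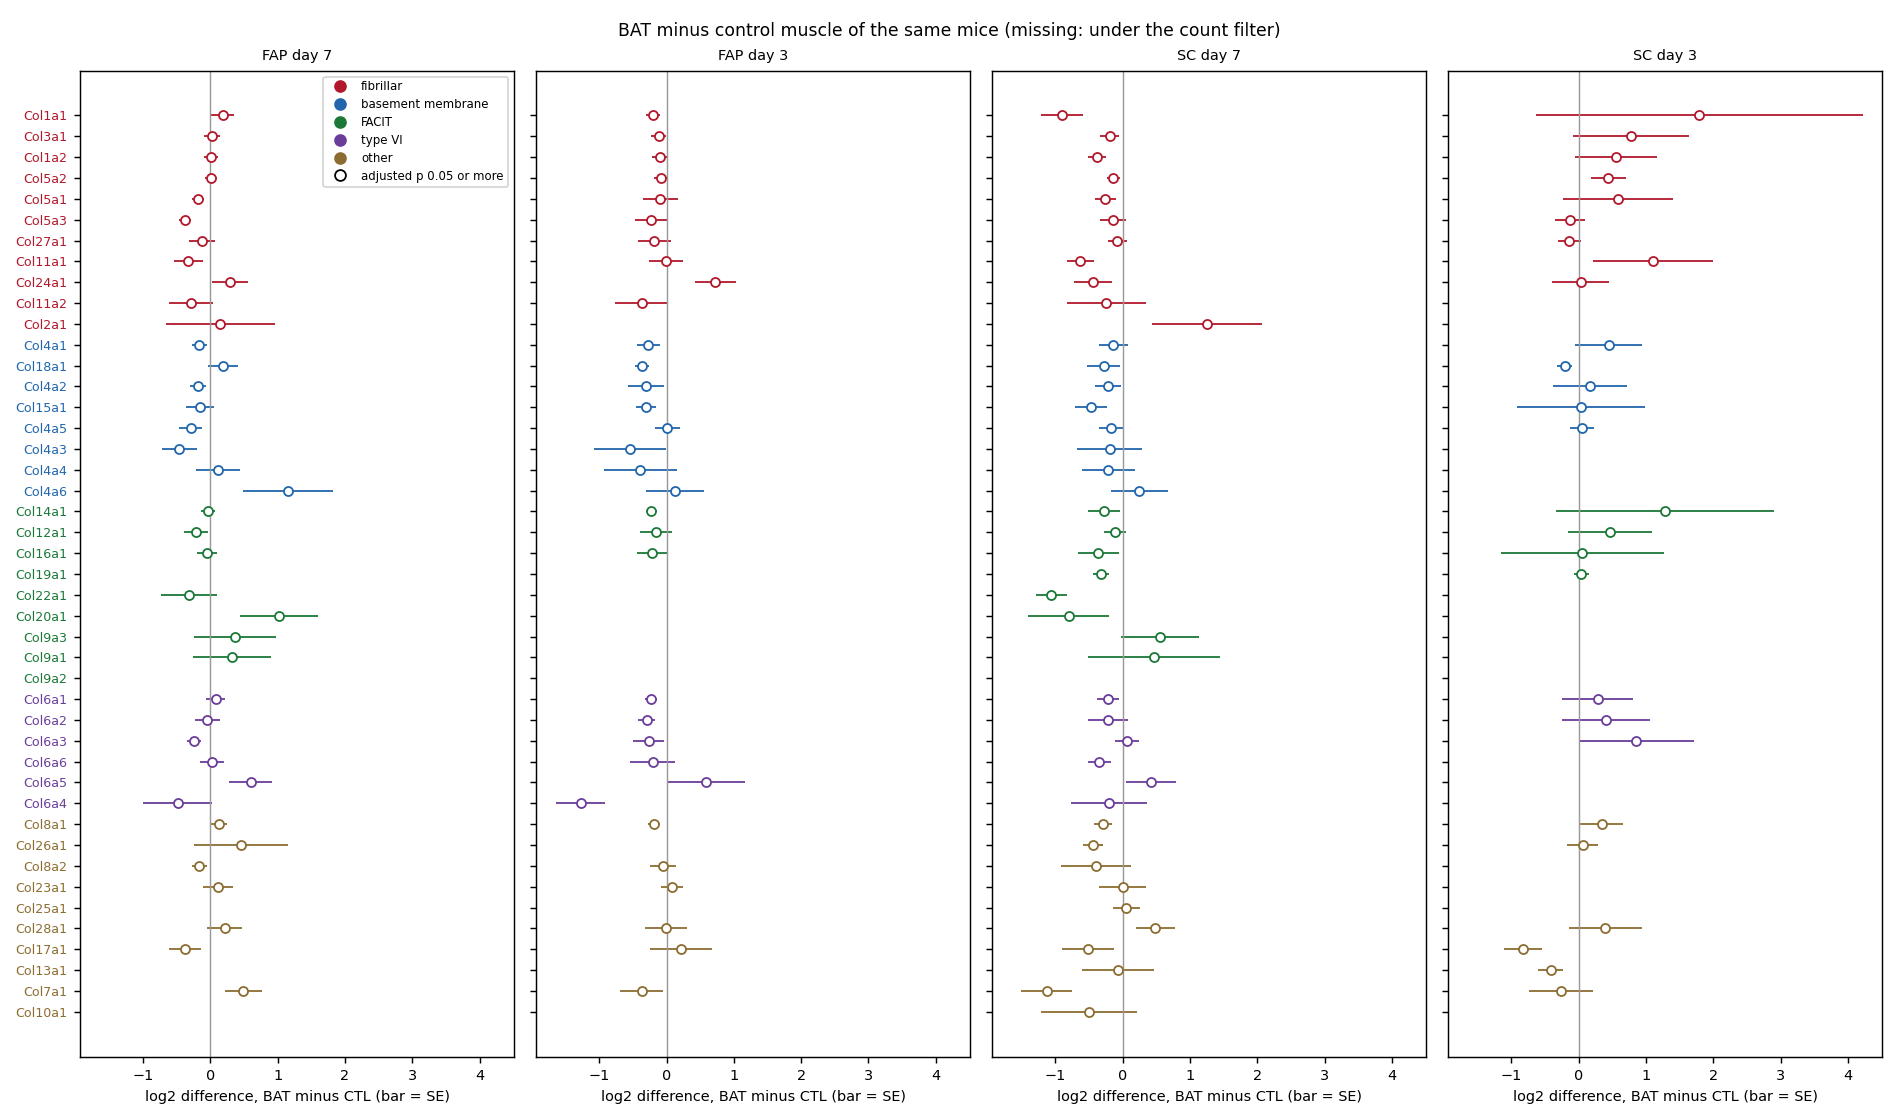
Log2 difference, BAT minus CTL in the same mouse, for each member tested in the 4 comparisons of transplant and control muscle (points; bars, SE from edgeR's quasi-likelihood fit, mouse as a block). No point passes an adjusted p of 0.05, and Col22a1 in SCs at day 7, at -1.06, has the smallest unadjusted p.

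In SCs at day 7 the smallest p belonged to Col22a1, which had 8.65, 4.55, 2.16 and 9.59 CPM in SC BAT, against 20.4, 15, 2.34 and 19.0 CPM in SC CTL libraries. It was lower with the transplant in all 4 mice, and in replicate 3 it was low in both muscles. The log2 difference was -1.06 ± 0.22, with an adjusted p of 0.42 by edgeR's quasi-likelihood test, and DESeq2 called it at -1.04 (adjusted p = 0.0067). With no filter on low counts edgeR called Col22a1 and Col1a1. Tenocyte markers summed to 360, 288, 56.6 and 352 CPM in SC BAT and to 522, 574, 56.7 and 480 CPM in SC CTL day 7 libraries, also lowest in replicate 3, and their part was not tested. Next came Col11a1, a minor fibrillar chain, at -0.63 ± 0.20, and Col7a1, the anchoring fibril chain, at -1.13 ± 0.38.

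In FAPs at day 3 the smallest p values were those of Col18a1, at -0.37 ± 0.10, Col6a4, at -1.28 ± 0.37, and Col14a1, at -0.23 ± 0.08. Col18a1 had 51.7, 32.9, 47.9 and 47 CPM in FAP BAT, against 71.6, 47.1, 52.3 and 60.0 CPM in FAP CTL day 3 libraries, and was lower with the transplant in all 4 mice. Col14a1 had 247, 227, 269 and 227 CPM in FAP BAT, against 292, 286, 309 and 248 CPM in FAP CTL day 3 libraries, again lower in all 4 mice, although the groups overlapped. In FAPs at day 7 they were those of Col5a3, at -0.38 ± 0.09, Col6a3, at -0.24 ± 0.10, and Col5a1, at -0.18 ± 0.09. Col5a3 had 195, 230, 133 and 247 CPM in FAP BAT, against 236, 329, 189 and 285 CPM in FAP CTL day 7 libraries, lower in all 4 mice. In SCs at day 3 they were those of Col17a1, at -0.83 ± 0.28, Col13a1, at -0.42 ± 0.18, and Col18a1, at -0.21 ± 0.11. None of these 9 values passed the adjustment, at adjusted p of 0.953 to 1.

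For the abundant chains no transplant difference was called in the 4 comparisons above, and their values by library follow. Col1a1 had 26175, 71833, 21847 and 31038 CPM in FAP BAT day 7 libraries. Their mean was 37723 CPM, beside 34773 CPM in FAP CTL day 7. Replicate 2, from the same mouse, was the highest library of both groups, and both means rest largely on it. At day 3 Col1a1 had 12368, 7395, 11265 and 7403 CPM in FAP BAT libraries, 2 of them below the lowest FAP CTL library. In SCs it had 1233, 1424, 451 and 606 CPM in BAT day 7 libraries and 38.8, 717, 20.3 and 1313 CPM in BAT day 3 libraries, so that the 4 day 3 libraries spanned a wider range than the groups differed. Col3a1 had 23188, 25590, 33126 and 26601 CPM in FAP BAT day 7 libraries and 14924, 10045, 13834 and 13041 CPM in FAP BAT day 3 libraries. In SC BAT libraries it had 1855, 1852, 1105 and 1509 CPM at day 7 and 148, 697, 122 and 1108 CPM at day 3.

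The type IV chain Col4a1 had 400, 219, 237 and 467 CPM in FAP BAT day 7 libraries and 90.5, 128, 125 and 140 CPM in FAP BAT day 3 libraries. The SC BAT libraries held 367, 355, 279 and 231 CPM at day 7 and 9.91, 22.1, 8.39 and 15.4 CPM at day 3. In SCs every BAT day 7 library was above every BAT day 3 library, as in control muscle. Col6a1 had 4009, 5663, 2591 and 3983 CPM in FAP BAT day 7 libraries and 1785, 1444, 1844 and 1542 CPM in FAP BAT day 3 libraries. In SC BAT libraries it had 727, 768, 452 and 481 CPM at day 7 and 59.6, 178, 30.6 and 208 CPM at day 3. Each of these BAT groups overlapped its control group, although 3 of 4 FAP BAT day 3 libraries had less Col6a1 than every FAP CTL day 3 library. Compared within mice, Col6a1 in FAPs at day 3 was lower with the transplant in all 4, but was not called.

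Col18a1 had 253, 309, 169 and 280 CPM in FAP BAT day 7 libraries, 327, 306, 200 and 187 CPM in SC BAT day 7 libraries and 40.3, 49.7, 27.9 and 68.1 CPM in SC BAT day 3 libraries. Col14a1 had 732, 713, 565 and 698 CPM in FAP BAT day 7 libraries, 17.3, 16.8, 10.4 and 7.46 CPM in SC BAT day 7 libraries and 0.541, 4.82, 0.631 and 17.8 CPM in SC BAT day 3 libraries. The SC BAT day 3 libraries with 4.82 and 17.8 CPM, replicates 2 and 4, were those with the high Col1a1 and FAP marker levels. Col12a1 had 244, 200, 205 and 236 CPM in FAP BAT day 7 and 95.2, 193, 161 and 186 CPM in FAP BAT day 3 libraries. The SC BAT libraries held 55.3, 52.1, 29.8 and 38.7 CPM at day 7 and 6.91, 23.3, 3.06 and 15.1 CPM at day 3. All of these groups overlapped their control groups.

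Col6a2 had 1392, 1809, 673 and 1672 CPM in FAP BAT day 7 and 536, 428, 562 and 603 CPM in FAP BAT day 3 libraries. In SC BAT libraries it had 212, 154, 159 and 93.4 CPM at day 7 and 12.4, 45.7, 9.85 and 65.0 CPM at day 3. Replicate 3 of FAP BAT day 7, from the mouse whose sex transcripts go against its label, was the lowest of its group here and for Col8a1. Col8a1 had 613, 822, 371 and 653 CPM in FAP BAT day 7 and 562, 568, 764 and 600 CPM in FAP BAT day 3 libraries. The SC BAT libraries held 236, 278, 114 and 201 CPM at day 7 and 26.3, 74.8, 41.8 and 84.6 CPM at day 3. These BAT groups also overlapped their control groups. Compared within mice, Col6a2 in FAPs at day 3 was lower with the transplant in every mouse, but was not called.

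Col26a1 had 0.510, 0.214, 1.03 and 1.29 CPM in FAP BAT day 7 and 0.0402, 0.0407, 0.0404 and 0.0957 CPM in FAP BAT day 3 libraries, with the day 3 values standing for 1 to 3 counts a library. In SC BAT libraries it had 53.8, 33.8, 43.2 and 42.5 CPM at day 7 and 2.16, 2.68, 2.13 and 3.82 CPM at day 3. Its excess in SCs over FAPs was thus present in transplant muscle too.

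The difference of the transplant effect between days, tested as an interaction, called 0 of 43 members in SCs and 0 of 40 in FAPs, against 0 of all genes, with 3 and 0 members at an unadjusted p under 0.05 against 5.12% and 3.35% of all genes. DESeq2 called 0 in both. The smallest p in SCs was that of Col6a6, at -2.31 ± 0.51. At day 3 this gene had 42 counts in all SC BAT and 11 in all SC CTL libraries, so the size is loosely set.

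Pairs of chains were compared within libraries, per kilobase of transcript. The ratio of Col4a1 to Col4a2 lay between 2.07 and 3.53 in all 32 libraries (2.69 ± 0.379, SD, n = 32), although Col4a1 itself ran over a range of 5.21 to 606 CPM. These genes start 21 bases apart on opposite strands of chromosome 8, and their annotated transcripts overlap by 22 bases; whether counting used the strand is not given in the sources used here. The ratio of Col6a2 to Col6a1 lay between 0.202 and 0.475. By contrast the ratio of Col1a1 to Col1a2 ran from 0.104 to 3.11, with means of 1.98 in FAP CTL and 1.09 in SC CTL libraries at day 7, and of 1.24 in FAP CTL and 0.353 in SC CTL libraries at day 3. Without SC CTL day 3 replicate 3, the library with the macrophage and FAP markers, the last mean was 0.159. The ratio of Col12a1 to Col14a1, chains of separate collagens, averaged 0.221 in FAP CTL and 1.75 in SC CTL libraries at day 7, and 0.342 in FAP CTL and 4.69 in SC CTL libraries at day 3. The SC CTL day 3 values were 7.79, 6.66, 0.625 and 3.66 in replicates 1 to 4, lowest in replicate 3. For Col5a3 to Col5a1 the means were 0.802 in FAP CTL and 0.852 in SC CTL libraries at day 7, and 0.574 in FAP CTL and 2.57 in SC CTL libraries at day 3.

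Likeness of neighbouring genes was described by Pearson's r of log2 CPM over the 32 libraries, which share mice and cell types, and by r of the deviations from group means. Col4a1 and Col4a2 gave 0.995 and 0.940, Col6a1 and Col6a2 0.993 and 0.914, and Col1a1 and Col1a2, which lie on different chromosomes, 0.981 and 0.916. Col3a1 and Col5a2, neighbours on chromosome 1 with 24614 bases between them, gave 0.991 and 0.869. Col4a3 and Col4a4, whose starts are 72 bases apart on chromosome 1, gave 0.900 and 0.835, and Col4a5 and Col4a6 on the X chromosome 0.692 and 0.839. Col9a1 and Col19a1, 9205 bases apart, gave -0.114 and 0.025. However, Col9a1 had 0 counts in 10 and Col19a1 in 11 of the 32 libraries, and Col9a1 reached 2.32 CPM at most. Counting error lowers r at such levels.

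The genes that modify, fold, process, cross-link and bind collagen were counted on lists. Of all genes tested in FAPs minus SCs, 22.6% were higher and 22.5% lower at day 7, and 35.9% were higher and 35.8% lower at day 3. At day 7, 15 of 16 modification enzymes tested were higher and 0 lower, led by the prolyl hydroxylase P4ha3, at 4.58, the galactosyltransferase Colgalt2, at 3.78, and P4ha2, at 2.67 on the log2 scale. All 5 cross-linking oxidases were higher, led by Loxl2, at 3.50, Loxl4, at 3.42, and Lox, at 3.11. All 11 fibril assembly genes were higher, led by the small proteoglycan Lum, at 6.65, Tnxb, at 5.90, and Dcn, at 5.80. Lum and Dcn are also on the list of FAP markers used here, so their direction is no separate result. Of 7 propeptide processing genes 6 were higher, led by Tll1, at 3.96. Of 10 receptors 4 were higher, led by the integrin chain Itga11, at 5.38, and 1, the discoidin domain receptor Ddr1, was lower, at -3.02. Chaperone and export genes were split, with 6 higher and 2 lower of 9, the lower ones being Tmem38b, at -1.91, and Klhl12, at -0.83. At day 3 the counts were 16 of 16, 5 of 5, 11 of 11 and 6 of 7 higher in the first 4 lists, where the lower one was Adamts14, at -0.51. For receptors and for chaperone and export genes they were 6 higher and 2 lower of 9 each. The median log2 differences at day 7 were 1.71 for modification enzymes, 3.11 for oxidases, 3.92 for fibril assembly, 3.01 for propeptide processing, 0.53 for receptors and 0.84 for chaperone and export genes, against -0.05 over all genes tested.

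The day difference of these lists was counted in each cell type, where 29.7% of all genes tested were higher and 29.8% lower in SCs, and 11.5% higher and 11.4% lower in FAPs. In SCs 11 of 15 modification enzymes were higher and 1, the prolyl isomerase Ppib, was lower, at -0.54, while 3 of 5 oxidases, 8 of 11 fibril assembly genes and 8 of 10 receptors were higher. Propeptide processing genes in SCs were higher for 4 of 6 and lower for 1, Pcolce2, at -2.17, and chaperone and export genes were higher for 7 of 9 and lower for 1, Sar1b, at -0.64. In FAPs 2 of 16 modification enzymes, P3h2 at 1.49 and Colgalt2 at 1.23, were higher, a share near that of all genes, 0 of 7 propeptide processing genes were called, and 2 of 5 oxidases were lower, Loxl4 at -1.01 and Loxl3 at -0.82. Of 9 chaperone and export genes in FAPs 1, Mia2, was higher, at 0.61, and 2 were lower, Sar1b at -0.56 and Sec24d at -0.47, while 4 of 10 receptors were higher. Fibril assembly genes were higher for 6 of 11 in FAPs, led by Fmod, at 3.01, Comp, at 2.86, and Kera, at 2.82, all known from tendon. Fmod and Kera are also on the list of tenocyte markers used here. By the interaction test, against 15.4% lower and 8.39% higher of all genes tested, the day difference was smaller in FAPs than in SCs for 9 of 16 modification enzymes, 3 of 5 oxidases, 6 of 11 fibril assembly genes, 4 of 7 propeptide processing genes, 4 of 10 receptors and 5 of 9 chaperone and export genes, and larger for 1, the propeptide processing gene Pcolce2, at 2.68. No gene on these lists was called in any comparison of BAT with CTL. The lists were drawn up with earlier results of these data known and are no independent evidence of direction.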

How the data were processed

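RNA from sorted cells (10 ng a library, RIN above 8, SMARTer Ultra Low kit, per the labels' protocols) was sequenced, and the deposited tables hold estimated counts per gene, which the authors made with DRAGEN on the mm10 build, per the submitters' processing notes; DRAGEN's version, the annotation and the strand setting were not given in the sources used here. Of 55774 table entries, 287 repeated an Ensembl ID and were dropped. The members and lists were chosen with earlier results of these data known.

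Counts were rounded to whole numbers, which changed no library total by more than 0.00034%. All genes passing filterByExpr (10 counts, 15 in total) were fitted with edgeR 4.0.16 in R 4.3.3 (TMM scaling, quasi-likelihood F test, Benjamini-Hochberg adjustment over all genes tested, threshold 0.05), and SE is the fold change over the square root of F. Mouse was a block except between days. Of the deviations from group means, the 2 muscles of a mouse correlated at 0.659 in FAPs at day 7, 0.200 in FAPs at day 3, 0.504 in SCs at day 7 and 0.034 in SCs at day 3 on average. The mouse codes in the labels give the pairs, but at day 3 the FAP libraries of replicate 4 and the SC libraries of replicate 3 carry no code and were taken as 1 mouse. Day 3 replicate numbers mark different mice in the 2 cell types. No 2 libraries of a group agreed within sampling noise, the smallest chi-square per degree of freedom being 17.1. Levels are TMM-scaled CPM over all 32 libraries, shares use plain counts, and levels per kilobase use the GENCODE M21 transcript with the longest coding sequence. Intervals and limits cover counting error only.

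Values in every library are given for the 2 members of each class with the highest level per kilobase. In other comparisons the text names the 3 called members with the largest difference in each direction and every member called against the majority, and, where none was called, the 3 with the smallest p; members given beyond these were chosen after their values were seen. Pathway genes follow the same rule of 3. The fits were tested on simulated data. Alternatives were RLE scaling, DESeq2 1.42.0, no filter, the block, BAT muscle in place of control muscle and leaving out replicates; library totals, and SCs without the macrophage-rich day 3 pairs, were chosen after seeing the data.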

Additional observations from a re-analysis of the deposited data

Results flagged for a closer look

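SC CTL day 3 replicate 3 stood apart from the other 3 libraries of its group in Col14a1, at 7.36 CPM against 0.559 to 0.685 CPM, in Col1a1, at 376 CPM against 24.7 to 56.0 CPM, in Col3a1, at 460 CPM against 155 to 164 CPM, and in Col6a2, at 31.1 CPM against 14.8 to 17.2 CPM. The same library had fibrillar collagens at 0.139% of its counts, against 0.0477% to 0.0543% in the others, and all collagens at 0.172%, against 0.0691% to 0.0801%. Col6a2 in FAP CTL day 3 replicate 1, at 842 CPM, was apart from 578 to 617 CPM in the others. Col26a1 in FAP BAT day 3 replicate 4, at 0.0957 CPM, was apart from 0.0402 to 0.0407 CPM, a matter of 3 counts against 1. The measure was the gap to the nearest library over the range of the group, above Dixon's 95% critical value, which chance exceeds in about 1 of 20 sets, or 6.4 of the 128 sets of 4 libraries examined, and 8 exceeded it.

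The day 7 minus day 3 difference was unequal between FAPs and SCs in control muscle, by an interaction test, for 22 members. That of Col13a1, fitted at 5.75, rests on a FAP CTL day 3 group with 2 counts in all, so the fitted value depends on the prior count and gives no size. By the same test the values, FAP minus SC, were 1.99 for Col17a1, -4.20 for Col25a1, -3.87 for Col15a1, -3.84 for Col6a6, -3.81 for Col4a1, -3.37 for Col1a1, -2.99 for Col26a1, -2.97 for Col8a1, -2.24 for Col6a1, -2.20 for Col3a1, -2.16 for Col12a1 and -2.14 for Col6a2 on the log2 scale. The Col25a1 and Col6a6 values rest on few counts at day 3, as given above.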

How the results depend on the processing

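The counts of called members kept within 1.5 times their value under 123 of 126 alternative fits. The exceptions were SCs at day 7, BAT minus CTL, where DESeq2 called 1 member (Col22a1) and edgeR without a filter called 2 (Col22a1 and Col1a1) against 0, and the interaction of day and cell type, where BAT muscle gave 9 against 22 in control muscle; the cause was not tested. Leaving out 1 library or mouse gave 30 to 32 called members for FAPs minus SCs at day 3, 23 to 29 at day 7, 33 to 37 for the day difference in SCs, 19 to 26 in FAPs, 17 to 22 for the interaction, and 0 for each BAT comparison. Of the values of named members, 4 changed sign, all of them uncalled: FAPs minus SCs at day 7 for Col4a1, at -0.31 with library totals and between -0.095 and 0.46 when 1 mouse was left out; the same difference for Col18a1, at 0.036 in BAT muscle; and the interaction for Col18a1, at 0.045 in BAT muscle. Another 40 lost a call and 13 gained one, against 988 that did neither. With the replicate number as a block, the day difference called 33 members in SCs and 21 in FAPs, and those numbers mark different mice on the 2 days. Without the mouse block, FAPs minus SCs called 32 at day 3 and 24 at day 7, the interaction 21 and each BAT comparison 0. Library totals moved the median of all genes to -0.47 for FAPs minus SCs at day 7, -0.15 at day 3, 0.39 for SCs between days and -0.41 for the interaction. Without the macrophage-rich day 3 pairs, the SC transplant comparisons at day 3 and across days called 0.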
